A study of Homo sapiens with 30 samples.

Results

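The genes that encode the proteins of the mitochondrial ribosome were followed here in G401 cells. They were taken from the PRO-Seq table as every symbol made of MRPL or MRPS and a number, with an optional letter A, B or C, which gave 73 of the 20367 genes in the table, 45 named MRPL and 28 named MRPS. G401 is a line from a human rhabdoid tumour that lacks SNF5, the SWI/SNF subunit encoded by SMARCB1, so every sample, controls included, carries the same loss. The cells held a lentiviral construct that doxycycline induces, for EGFP (the control), for SNF5, or for OmoMYC, a dominant-negative mutant of the transcription factor MYC, and were collected after 24 h at 1 μg/ml. PRO-Seq, a nuclear run-on assay that maps engaged RNA polymerase on the strand it transcribes, and ATAC-Seq, which maps accessible chromatin, had 3 samples per construct. For MYC ChIP-Seq the peak lists of 2 EGFP and 2 SNF5 samples were used. The study describes the samples of each construct as biological replicates. The tests took out differences shared by samples with the same replicate number. The p-values therefore measure how far the differences between constructs varied from one replicate number to another.

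The mitochondrial ribosome translates the few messages that mitochondrial DNA encodes, all of which specify subunits of the respiratory chain and ATP synthase. Its RNAs come from mitochondrial DNA, but its proteins come from nuclear genes, are made on cytosolic ribosomes and are then imported, so the nucleus must supply many different proteins for each particle. Compared with the bacterial ribosome, to which it is related, it has lost RNA and gained proteins. Names do not always give the subunit: MRPS30 and MRPS18A sit in the large subunit, and MRPS36 is now known as a component of the 2-oxoglutarate dehydrogenase complex. By structure, 47 members belonged to the large subunit, 25 to the small subunit and MRPS36 to neither. Of the 73 members, 45 have a bacterial homologue and 27 do not, with MRPS36 left aside.

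MYC with its partner MAX recognises the E-box CACGTG, and many housekeeping promoters also hold sites for ETS family factors such as GABP (nuclear respiratory factor 2) and for NRF1, both known regulators of nuclear genes for mitochondrial proteins. The 2 E-boxes shown first lay at MYC summits of members and were read from the hg19 genome on the plus strand, with the hexamer in capitals, at chr3:131221732-131221761 and chr17:36452989-36453018. They are shown because MRPL3 was the only member with a MYC peak in SNF5 samples, and MRPL45 is the other of the members with an E-box at a MYC summit whose sequence is shown.

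MRPL3: ccacgccaccgcCACGTGgacgcagtagcc

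MRPL45: cactcccgcgagCACGTGcgcgtcctcgct

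The following sequences are the 250 bases before the start of 3 members, from RefSeq on GRCh38.p14, in the direction of transcription. MRPL17 lies at chr11:6683341-6683590 (minus strand), MRPL20 at chr1:1407294-1407543 (minus strand) and MRPS26 at chr20:3045802-3046051 (plus strand). All 3 had a MYC region at the start and gene body counts that fell with SNF5. Capitals mark the E-box, the ETS core CCGGAAG or the NRF1 core GCGCATGC on either strand, and overlapping matches run together.

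MRPL17: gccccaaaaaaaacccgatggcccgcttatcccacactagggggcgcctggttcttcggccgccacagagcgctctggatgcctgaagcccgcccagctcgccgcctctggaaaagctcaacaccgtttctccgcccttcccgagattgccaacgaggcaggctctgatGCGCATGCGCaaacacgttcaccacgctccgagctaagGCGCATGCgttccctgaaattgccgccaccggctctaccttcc

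MRPL20: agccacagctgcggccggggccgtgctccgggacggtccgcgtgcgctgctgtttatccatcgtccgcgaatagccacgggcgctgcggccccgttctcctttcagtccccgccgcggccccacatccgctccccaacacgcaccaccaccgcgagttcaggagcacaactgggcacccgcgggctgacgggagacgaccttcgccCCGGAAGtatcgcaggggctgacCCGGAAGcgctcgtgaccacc

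MRPS26: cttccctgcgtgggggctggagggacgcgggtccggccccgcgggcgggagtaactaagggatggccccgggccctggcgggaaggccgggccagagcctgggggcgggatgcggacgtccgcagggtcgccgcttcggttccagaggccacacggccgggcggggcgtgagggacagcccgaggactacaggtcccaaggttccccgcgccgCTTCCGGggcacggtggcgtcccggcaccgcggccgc

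MRPL20 held 2 copies of the ETS core and MRPS26 held 1, while MRPL17 held NRF1 cores and no E-box. Across promoters of 300 bases (250 before and 50 after the start), the ETS core was present in 27 of the 64 members with a sequence, 42.2%, against 14.3% of the 13295 genes of the table with one and 10.3% of all 35116 RefSeq promoters. The NRF1 core was present in 9.38% of members and 4.39% of the genes of the table. The E-box was present in 9.38% of members against 9.02%, so here the members were close to the other genes. A match describes letters only, and the ETS and NRF1 cores were chosen for the search after the PRO-Seq results were seen.

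The PRO-Seq table gives 2 raw read counts per gene. The promoter-proximal count covers the 50 bp that gathered the most reads inside 500 bp to either side of the start, where polymerase pauses, and the gene body count runs from 1 kb past the start to the end of the gene. Totals ran from 28388012 to 46859674 gene body reads per sample and from 517821 to 3381189 promoter-proximal reads, and the 3 samples numbered 1 had the lowest promoter-proximal totals, 517821 with EGFP, 671718 with OmoMYC and 660342 with SNF5. The members took 0.329% to 0.403% of gene body reads (0.217% to 0.247% without MRPS6, whose reads cannot be told from those of an overlapping gene) and 0.789% to 0.930% of promoter-proximal reads. A gene entered a test with a mean of at least 10 counts over the 9 samples in the region or regions tested. Counts are relative to each sample's total, so a change common to all genes would not be seen. SMARCB1, the check of the labels, had 4, 1 and 6 gene body reads in the EGFP samples, 2, 5 and 4 with OmoMYC, and 2870, 4467 and 3440 with SNF5.

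Of the 73 members, 70 passed the filter on gene body counts and 69 the filter on promoter-proximal counts. MRPL45 and MRPS18B had 0 reads in both regions of every sample, although a MYC peak lay at each start in EGFP replicate 2. MRPS36 had from 0 to 3 gene body reads per sample and 0 promoter-proximal reads. MRPS21 passed the gene body filter with 14 to 36 reads per sample, but had 0 promoter-proximal reads in all 9. For these 4 genes no statement on the missing measure is made.

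With EGFP, the members were transcribed at a median gene body density of 3.04 reads per kb per 1000000 gene body reads, against 1.23 for all 15060 genes that passed the filter and 23.8 for the cytosolic ribosomal protein genes. The highest density per length was that of MRPS6, 21.7 ± 2.32 (SD, n = 3). MRPL12 (which also binds the mitochondrial RNA polymerase), MRPL20 and MRPL17 followed at 11.16 ± 1.27, 10.96 ± 1.94 and 10.8 ± 0.56 (SD, n = 3 each), and these 3 did not differ beyond their spread. The lowest densities were those of MRPS21 at 0.0585 ± 0.0108, MRPL54 at 0.409 ± 0.102, MRPL48 at 0.669 ± 0.0858 and MRPS31 at 0.692 ± 0.0382, the last pair within their spread. The SLC5A3 gene begins inside MRPS6 on the same strand, and NIPSNAP2 overlaps MRPS17 in the same way, so reads of these pairs cannot be told apart. A same-strand annotated gene without a symbol overlapped the gene body of 8 members.

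Member genes were short, with a median gene body of 7675 bp against 29464 bp for all genes tested. Short gene bodies gave few reads: MRPL51, with a gene body of 156 bp, had 2 to 21 reads per sample, and MRPL34, with 176 bp, had 7 to 44.

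The pausing index, the reads per base in the promoter-proximal window over the reads per base in the gene body, had a median of 24.0 over the 69 members with EGFP, against 28.7 for all 11171 genes tested. It was highest for MRPS31, with 43.1, 1474 and 1001 in EGFP replicates 1, 2 and 3, then for MRPS28 with 74.1, 643.7 and 523.9, and MRPL54 with 22.8, 506.9 and 270.5. Replicate 1, with its low promoter-proximal total, was the lowest in each. It was lowest for MRPS34, with 3.52, 2.38 and 2.25, MRPL12, with 3.40, 8.66 and 4.98, and MRPL11, with 2.47, 14.9 and 6.58. The gene body of MRPS34 spans 245 bp. The plot of level and pausing shows both subunits. The highest density and both the highest and the lowest pausing index belonged to small subunit members (MRPS6, MRPS31 and MRPS34), and the difference between the subunits was not tested.

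**Figure D1:**
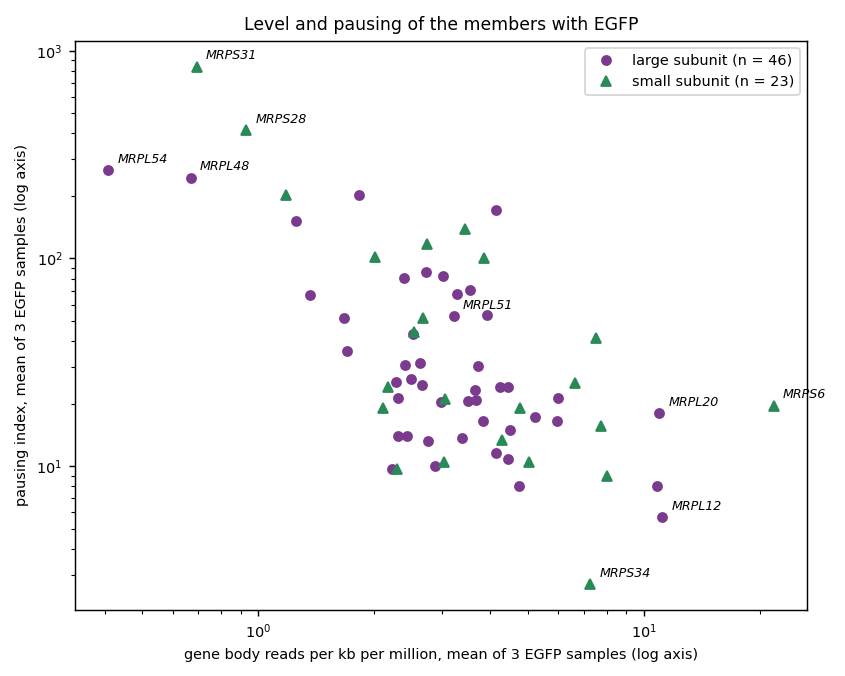
Each point is 1 of the 69 members that passed both filters, with its gene body reads per kb per 1000000 (horizontal, log axis) and its pausing index (vertical, log axis), both means of 3 EGFP samples. Circles are large subunit and triangles small subunit members. The gene body density is also the denominator of the index. MRPS6 stands at the highest density, 21.7, and MRPS31 at the highest index.

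The comparison of SNF5 with EGFP asks what return of the missing subunit did to transcription of these genes. Gene body counts of 17 of the 70 members tested fell with SNF5 and 0 rose, by edgeR's quasi-likelihood test blocked on the replicate number and adjusted by Benjamini-Hochberg over all 15060 genes at 0.05. Over all genes tested, 17.1% fell and 17.3% rose. The falls were modest, with log2 changes from −0.25 (0.842 of the EGFP level) for MRPS27 to −0.73 for MRPS12. The median log2 change of the 70 members was −0.17 against −0.03 for all genes, and 65 of 70 were below 0 (92.9%) against 54.2% of all genes. The gene body counts of 35 members were lower with SNF5 in each of the 3 pairs of samples with the same number, where 32.1% of all genes were, and in 13 the groups did not overlap, with SNF5 lower, where 8.25% of all genes did so.

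MRPS12, a protein of the small subunit's decoding region with a bacterial homologue, lies at chr19:39421348-39423659 (hg19). It had 8.12, 10.7 and 11.7 gene body reads per 1000000 (RPM) in the EGFP samples and 4.81, 5.68 and 8.08 in the SNF5 samples. All SNF5 samples were below all EGFP samples, and the log2 change was −0.73 (SE 0.13, adjusted p = 0.0032 from edgeR). MRPL12 (chr17:79670400-79674556), a stalk protein that recruits translation factors, had 32.3, 33.6 and 39.8 RPM with EGFP and 23.5, 25.2 and 28.3 with SNF5. Again the groups did not overlap, with a log2 change of −0.45 (SE 0.08, edgeR adjusted p = 0.0041). MRPL4 (chr19:10362640-10370736), a large subunit protein, had 26.8, 21.1 and 31.2 with EGFP and 19.5, 17.4 and 23.0 with SNF5. Each SNF5 sample was below its pair, but the groups overlapped, and the log2 change was −0.40 (SE 0.08, edgeR adjusted p = 0.0052).

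The other 14 members called were, in order of their p-value, MRPL35, MRPL17, MRPL11, MRPL20, MRPS27, MRPS25, MRPS26, MRPS17, MRPL32, MRPS7, MRPS16, MRPL23, MRPL43 and MRPS23. Of the 17, 9 belonged to the large subunit and 8 to the small subunit. The median log2 change was −0.16 over the 46 large subunit members tested and −0.21 over the 24 of the small subunit. It was −0.19 over the 45 members with a bacterial homologue, 12 of which were called, and −0.15 over the 25 without one, 5 of which were called. Of the 2 members whose names give the other subunit, neither was called: MRPS30 had a log2 change of −0.04 (SE 0.14) and MRPS18A of −0.04 (SE 0.07), with edgeR adjusted p of 0.853 and 0.709.

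The replicates differed in how far the members moved. The median log2 ratio of SNF5 to EGFP over the 70 members was −0.22 in pair 1, −0.21 in pair 2 and −0.08 in pair 3. Leaving out the samples numbered 3 raised the count of members called to 41 (40 lower and 1 higher), in a fit that called 32.3% of all genes lower and 25.2% higher. Leaving out those numbered 1 lowered it to 1 (MRPL12), with 3.19% of all genes lower, and leaving out those numbered 2 to 0, with 2.12% lower. Without the block the count was 0, where 7 of all 15060 genes were lower and 217 higher. With only the EGFP and SNF5 samples in the fit it was 9, each of them lower. In that fit 1666 of all 15109 genes were lower and 2074 higher.

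**Figure D2:**
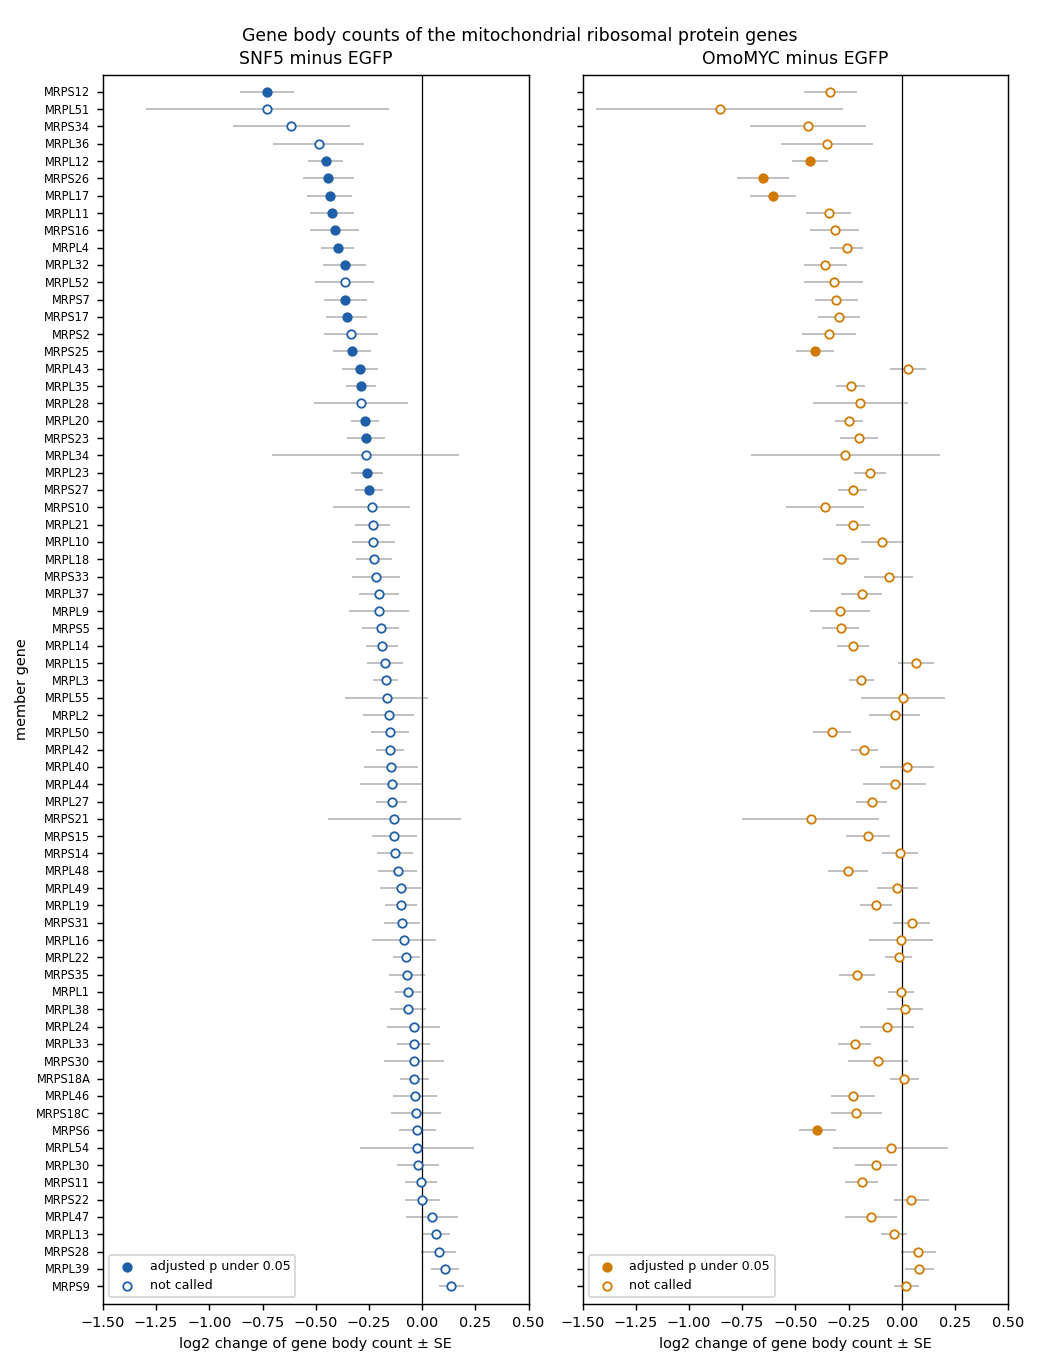
Each row is 1 of the 70 members tested, ordered by its change with SNF5. Points give the log2 change of gene body counts against EGFP and bars the standard error (3 samples per group), on the left with SNF5 and on the right with OmoMYC. Filled points have an adjusted p under 0.05. With SNF5, 65 points lie below 0, and with OmoMYC 59. Both panels use the same EGFP samples.

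OmoMYC competes with MYC for MAX and DNA, so the comparison of OmoMYC with EGFP gives the response of the same genes to a direct block of MYC. It shares its EGFP samples with the comparison above. Gene body counts of 5 of 70 members fell and 0 rose by edgeR's quasi-likelihood test, where 4.52% of all genes fell and 3.98% rose. The median log2 change of the members was −0.20, against 0.00 for all genes, and 59 of 70 were below 0 (84.3%), against 50.6% of all genes. In 34 members the OmoMYC sample was the lower in each of the 3 pairs, which held for 27.9% of all genes. In 15 the groups did not overlap, with OmoMYC lower, where 5.56% of all genes did so. At an unadjusted p under 0.05, 28 members (40.0%) were lower and 0 higher, where 15.7% of all genes were lower and 13.6% higher.

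MRPL17 (chr11:6701616-6704632), a large subunit protein at the exit of the peptide tunnel, had 21.8, 20.7 and 23.0 gene body RPM with EGFP, 14.3, 11.4 and 17.9 with OmoMYC, and 15.5, 14.4 and 18.9 with SNF5. Every OmoMYC and every SNF5 sample was below every EGFP sample. The log2 change was −0.60 with OmoMYC (SE 0.11, edgeR adjusted p = 0.024) and −0.43 with SNF5 (SE 0.11, adjusted p = 0.013). MRPS26 (chr20:3026675-3028896), a small subunit protein without a bacterial homologue, had 9.97, 7.77 and 11.7 RPM with EGFP and 6.23, 5.34 and 7.06 with OmoMYC. The groups did not overlap, with a log2 change of −0.65 (SE 0.12, edgeR adjusted p = 0.026).

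MRPL12 had 20.9, 26.6 and 31.4 RPM with OmoMYC, below its EGFP values above, and a log2 change of −0.43 (SE 0.08, edgeR adjusted p = 0.026). MRPS25 had 54.8, 61.7 and 66.2 with EGFP, 42.6, 40.4 and 55.2 with OmoMYC, and 49.0, 46.7 and 49.1 with SNF5. Its log2 change was −0.41 with OmoMYC (SE 0.09, edgeR adjusted p = 0.033) and −0.33 with SNF5 (SE 0.09, adjusted p = 0.020). The fifth member called was MRPS6, with a log2 change of −0.40 (SE 0.09, edgeR adjusted p = 0.033).

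With OmoMYC, too, pair 3 moved least: the median log2 ratio to EGFP over the members was −0.29 in pair 1, −0.28 in pair 2 and −0.02 in pair 3. The count of members called was 42, each of them lower, without the samples numbered 3, in a fit that called 25.2% of all genes lower and 20.0% higher. It was 0 without those numbered 1 or 2, where 0 of all genes were called lower and 2 higher in either fit. It was 0 without the block, where 0 of all genes were called lower and 1 higher. By DESeq2 it was 11, each of them lower, with 7.35% of all genes lower.

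**Figure D3:**
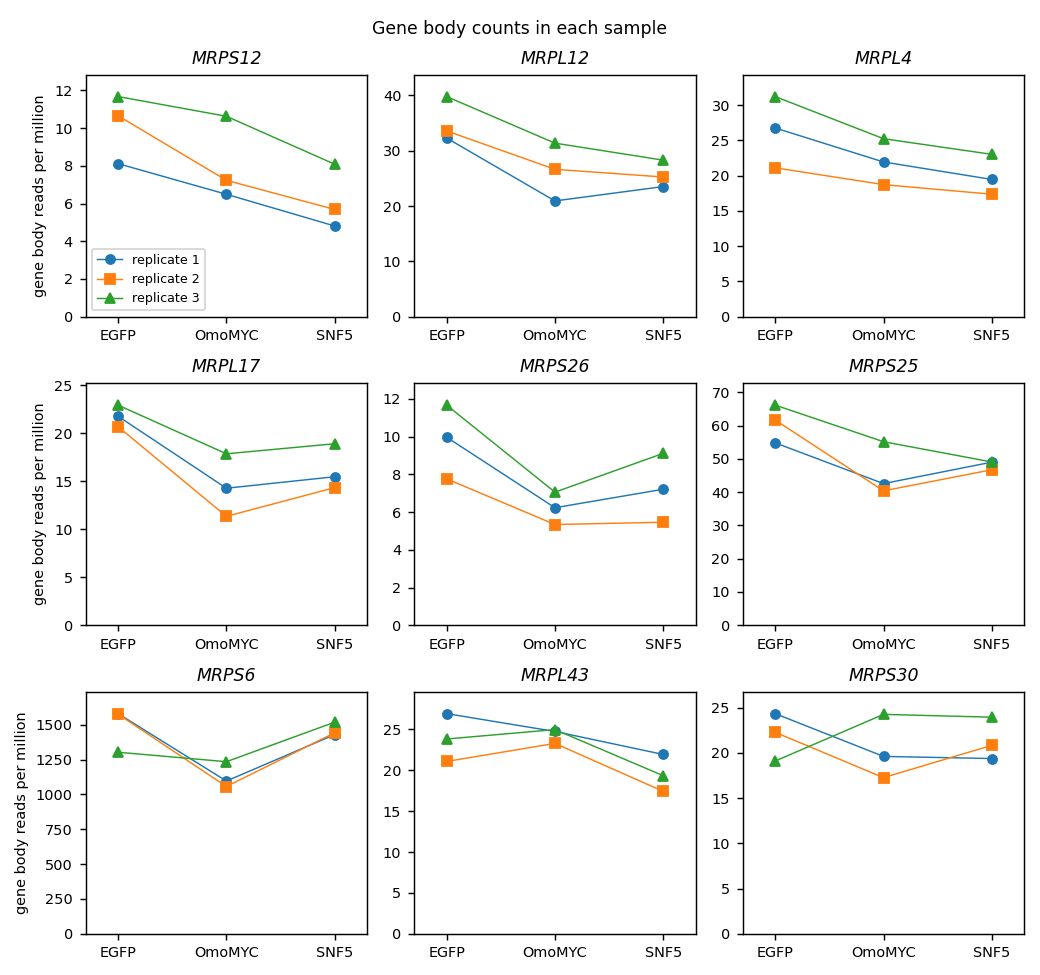
Gene body reads per 1000000 gene body reads (RPM, vertical axis, from 0) in each of the 9 samples for 9 members. Lines join samples with the same replicate number across EGFP, OmoMYC and SNF5. MRPS12, MRPL12, MRPL17 and MRPS26 are lower with SNF5 and OmoMYC in each of the 3 pairs, MRPS6 with OmoMYC lies between 1056 and 1234, below all EGFP and SNF5 samples, and MRPS30 shows no common direction.

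SNF5 was also compared directly with OmoMYC. Gene body counts of 2 of 70 members differed by edgeR's quasi-likelihood test, 1 higher with SNF5, where 11.4% of all genes were, and 1 lower, where 7.54% were. MRPS6 (chr21:35445823-35515334), a small subunit protein with a bacterial homologue, had 1579, 1576 and 1302 RPM with EGFP, 1096, 1056 and 1234 with OmoMYC, and 1429, 1442 and 1518 with SNF5. It was higher with SNF5 than with OmoMYC in each pair, by 0.37 on the log2 scale (SE 0.09, edgeR adjusted p = 0.019), and the limit that SLC5A3 shares its reads applies here. MRPL43 (chr10:102737579-102747272), a large subunit protein, had 26.9, 21.1 and 23.8 with EGFP, 24.7, 23.3 and 25.0 with OmoMYC, and 21.9, 17.4 and 19.3 with SNF5. It was lower with SNF5 than with OmoMYC in each pair, with a log2 difference of −0.32 (SE 0.08, edgeR adjusted p = 0.028). The counts were 9 members (7 higher and 2 lower) without the samples numbered 3, where 21.7% of all genes were higher and 20.3% lower. They were 0 without those numbered 1, where 4.53% of all genes were higher and 0.857% lower. Without those numbered 2 they were also 0, where 4.14% were higher and 0.817% lower. MRPL43 had an edgeR adjusted p of 0.053 with only the SNF5 and OmoMYC samples in the fit. The median difference over the 70 members was 0.00, whereas it was 0.20 over 72 cytosolic ribosomal protein genes. The cytosolic genes had a median log2 change of −0.19 with SNF5 and −0.41 with OmoMYC, with 20 and 45 of 72 called lower.

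Promoter-proximal counts of the members gave few calls. With SNF5, 0 of 69 members were called by edgeR's quasi-likelihood test, where 4.31% of all genes were called in either direction. The count was also 0 by DESeq2, and 11 members (15.9%) had an unadjusted p under 0.05, 10 of them lower, where 20.3% of all genes had one. The median log2 change was −0.14 against −0.05 for all genes. MRPL40 had the smallest p, with a log2 change of −0.61 (SE 0.22, edgeR adjusted p = 0.101), then MRPS17 with −0.62 (SE 0.23, adjusted p = 0.111). With promoter-proximal totals in place of gene body totals as the scale, 7 members were lower. In that fit 585 of all 11241 genes were lower and 453 higher.

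With OmoMYC, 1 of 69 members rose, where 1.56% of all genes did. This was MRPL51 (chr12:6601316-6602471), a large subunit protein without a bacterial homologue, whose start lies within 1 kb of that of the condensin gene NCAPD2 on the opposite strand. It had 77, 644 and 265 promoter-proximal reads with EGFP, 151, 1570 and 484 with OmoMYC, and 98, 1231 and 335 with SNF5. Scaled, the OmoMYC samples exceeded their EGFP pairs in all 3 cases, with a log2 change of 1.05 (SE 0.21, edgeR adjusted p = 0.0089), although the groups overlapped. The call was lost without the samples numbered 2. All genes together had a median log2 change of 0.12 on this scale, and of −0.03 when promoter-proximal totals set the scale. On that second scale MRPL51 was still called and 3 members were lower, where 1.04% of all genes were higher and 0.961% lower. The median over members, 0.09, became −0.05. MRPL54 had the next smallest p, with a log2 change of −0.72 (SE 0.24, edgeR adjusted p = 0.116). Between SNF5 and OmoMYC, 0 of 69 members were called by edgeR or DESeq2, 12 (17.4%) had an unadjusted p under 0.05, where 14.01% of all genes did, and 0.854% of all genes were called in either direction. MRPL51 and MRPS17 had the smallest p-values, with log2 differences of −0.64 (SE 0.21) and −0.67 (SE 0.23) and edgeR adjusted p of 0.152 and 0.168.

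The pausing index was tested as the interaction of region and construct. With SNF5, 0 of 69 members changed by edgeR or DESeq2, 8 (11.6%) had an unadjusted p under 0.05, where 18.6% of all genes did, and 3.65% of all genes were called in either direction. The smallest p-values were those of MRPL35, with a log2 change of 0.67 (SE 0.22, edgeR adjusted p = 0.076), and MRPL51, with 1.16 (SE 0.40, adjusted p = 0.091). With OmoMYC, the index of MRPL51 alone rose, where 1.94% of all genes did. It was 18.5, 100.5 and 39.4 with EGFP, 235.6, 376.8 and 94.4 with OmoMYC, and 25.5, 182.9 and 261.3 with SNF5, and the log2 change with OmoMYC was 1.88 (SE 0.41, edgeR adjusted p = 0.0097). This index rests on a gene body with 13, 20 and 21 reads with EGFP and 2, 13 and 16 with OmoMYC, and DESeq2 gave an adjusted p of 0.275. MRPS25 was next, with a log2 change of 0.78 (SE 0.23, edgeR adjusted p = 0.052). The median over members was 0.22 against 0.14 for all genes, and 11 members rose without the samples numbered 3, where 8.52% of all genes did, against 0 members and 0 genes in all without those numbered 2. Between SNF5 and OmoMYC, 0 of 69 members differed by edgeR or DESeq2, with 9 (13.0%) at an unadjusted p under 0.05, where 13.5% of all genes were, and 1.15% of all genes were called in either direction. MRPL50 and MRPL17 came closest, with log2 differences of −0.74 (SE 0.23) and −0.68 (SE 0.24) and edgeR adjusted p of 0.104 and 0.164.

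MYC peaks at the starts were taken with a summit within 1 kb of the start in the PRO-Seq table. Regions present in both EGFP samples, as peaks that overlapped by at least 1 bp, were found at 9 of 73 members (12.3%), where 4.34% of all genes and 41 of the 82 cytosolic ribosomal protein genes had one. The 2 lists differ in length, and EGFP replicate 2 alone had a peak at 47 members (64.4%), where 23.1% of all genes had one. A peak between divergent starts could be counted for both genes. MRPL46 and MRPS11 share the same peak, and divergent starts were more common among members (34.2%) than among all genes (11.1%). Requiring a reciprocal overlap of 50% left 4 of the 9 members and a q-value of 1e-05 left 5.

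MRPL3, a large subunit protein near the peptidyl transferase centre, had the strongest MYC peak of the members, with a fold enrichment over local background of 11.6 and 14.7 in EGFP replicates 1 and 2. It was also the only member with a MYC peak in SNF5 samples, at 7.83 and 5.37-fold in replicates 1 and 2. The summit in EGFP replicate 1 lay 136 bp inside the gene, in a coding exon of GENCODE, and the E-box shown above began 20 bp from it. The SNF5 lists are much shorter, with a peak at 0.614% and 0.0786% of all genes, and no test can be made on 2 samples against 2 without read counts. The gene body counts of MRPL3 had a log2 change of −0.17 with SNF5 (SE 0.06, edgeR adjusted p = 0.051).

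The other 8 members with a region in both samples were MRPL15, MRPL17, MRPL42, MRPL43, MRPL20, MRPS26, MRPL32 and MRPL45, with folds from 3.91 to 6.44 in replicate 1 and from 5.97 to 9.80 in replicate 2. Summits, taken from EGFP replicate 1, lay from 83 bp before the start (MRPL32) to 297 bp after it (MRPS26, in an intron). Those of replicate 2 differed: for MRPS26 3026762 against 3026972 in replicate 1, and for MRPL32 42971966 against 42971856 (hg19). An E-box stood within 100 bp of the summit at 3 of the 9, MRPL3, MRPL15 and MRPL45, or 33.3%, against 442 of the 884 genes with a region. Of the 8 such members tested for gene body counts, 5 were called lower with SNF5, with a median log2 change of −0.28, against 12 of 62 and −0.15 for the members without a region. Over all genes tested, 17.1% were called lower with SNF5. With a MYC peak in EGFP replicate 2, 15 of 45 were called lower and the median was −0.20, against 2 of 25 and −0.10 for those without. With OmoMYC, the medians were −0.22 for members with a region in both EGFP samples and −0.20 for those without, and −0.23 and −0.09 in the division by a peak in EGFP replicate 2. The members called lower with OmoMYC were 2 of 8 and 3 of 62 in the first division and 4 of 45 and 1 of 25 in the second. Over all genes, 4.52% were called lower with OmoMYC. These are descriptions, since peak detection also depends on the depth of a list.

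ATAC-Seq peaks were sought within 1 kb of the RefSeq start on GRCh38, for the 64 members with one. A peak in at least 2 of 3 samples was found for 50 members (78.1%) with EGFP, where 44.3% of genes of the table had one, for 46 (71.9%) with OmoMYC, where 42.6% did, and for 59 (92.2%) with SNF5, where 54.7% did. By sample, 47, 56 and 40 members had a peak with EGFP, 34, 59 and 42 with OmoMYC, and 61, 58 and 53 with SNF5. The SNF5 lists hold more peaks in all, and the share was higher with SNF5 for the members and for the other genes alike. MRPL43 was the only member with a peak in all 3 SNF5 samples and in 0 of 3 EGFP samples, a pattern seen at 1.92% of genes, and it also had 0 with OmoMYC. No member had the reverse pattern with either construct. MRPS34 and MRPL27 had no peak in any of the 9 samples.

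**Figure D4:**
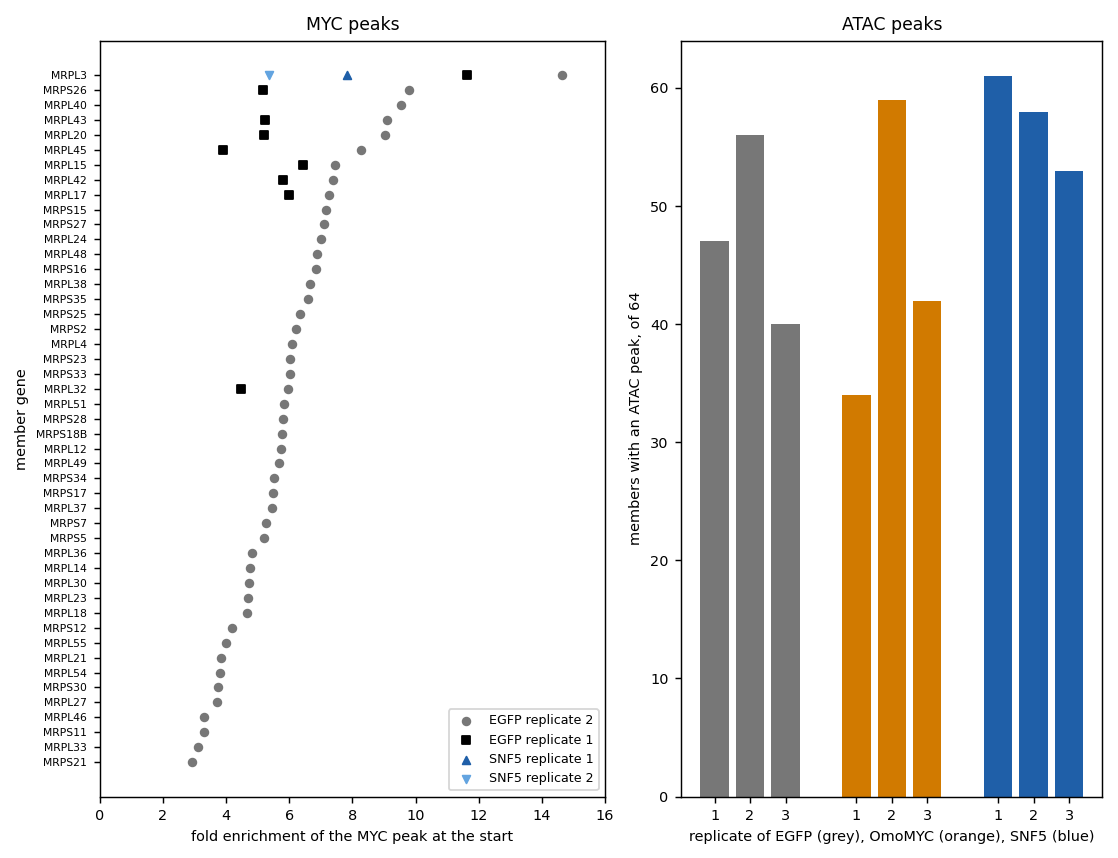
Left, the fold enrichment of the MYC peak at the start of the 47 members with a peak in EGFP replicate 2, with the values of EGFP replicate 1 and of both SNF5 samples where a peak was called. MRPL3 alone has symbols for SNF5, at 7.83 and 5.37. Right, the number of the 64 members with an ATAC-Seq peak within 1 kb of the start in each sample, from 34 in OmoMYC replicate 1 to 61 in SNF5 replicate 1.

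Divergent starts were common among the members. For 25 of 73 (34.2%) another gene of the table began within 1 kb on the opposite strand, against 11.1% of all genes. Partners included other genes for mitochondrial proteins: MRPL46 and MRPS11 share a start region, MRPS12 lies beside SARS2 (mitochondrial seryl-tRNA synthetase), MRPL47 beside NDUFB5 (a subunit of respiratory complex I) and MRPL43 beside C10orf2 (the mitochondrial DNA helicase Twinkle). The median gene body log2 change with SNF5 was −0.17 both for the 24 members tested with a divergent start and for the 46 without one. Calls of lower counts numbered 4 of 24 and 13 of 46 with SNF5, where 17.1% of all genes were lower. With OmoMYC they numbered 0 of 24 and 5 of 46, where 4.52% of all genes were lower. The difference between the 2 sets was not tested.

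Gene body counts were also read for genes that work beside the members. They were set against the share of all genes called lower, 17.1% with SNF5 and 4.52% with OmoMYC. The share of all genes at an unadjusted p under 0.05 with OmoMYC was 29.3%. Of 7 mitoribosome proteins with other names, ICT1 (a ribosome rescue factor built into the large subunit) and DAP3 (a small subunit GTP-binding protein) fell with SNF5, with log2 changes of −0.29 (SE 0.07) and −0.26 (SE 0.06) and edgeR adjusted p of 0.014 each, and 0 were called with OmoMYC, with 4 at an unadjusted p under 0.05. Of 24 genes for mitoribosome assembly and rRNA modification, 9 (37.5%) fell and 0 rose with SNF5, led by MTERFD1 (−0.48, SE 0.07) and MTG1, a GTPase of large subunit assembly (−0.31, SE 0.06). With OmoMYC 2 fell, FTSJ2 (an rRNA methyltransferase) with −0.31 (SE 0.06) and NOA1 with −0.31 (SE 0.08).

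Of 15 mitochondrial translation factors, 2 (13.3%) fell with SNF5, a share below that of all genes. TUFM, the elongation factor Tu of mitochondria, fell by 0.58 on the log2 scale (SE 0.13, edgeR adjusted p = 0.011) and MRRF, the ribosome recycling factor, by 0.18 (SE 0.06, adjusted p = 0.040). With OmoMYC the 2 that fell were SLIRP and LRPPRC, which bind and stabilise mitochondrial messages, with −0.41 (SE 0.09) and −0.31 (SE 0.08). Among 5 genes of mitochondrial transcription, POLRMT (the polymerase) fell by 0.32 (SE 0.08) and TFAM (its activator and the packaging protein of mitochondrial DNA) by 0.21 (SE 0.07) with SNF5, and 0 were called with OmoMYC, where TFAM had −0.21 (SE 0.07, edgeR adjusted p = 0.083) and 1 gene was at an unadjusted p under 0.05. Of 8 nuclear regulators, the coactivators PPRC1 and PPARGC1B and the factor YY1 fell with SNF5, with −0.35, −0.28 and −0.19, and PPARGC1B and YY1 fell with OmoMYC, with −0.23 and −0.26 (SE 0.05 and 0.06). For gene body counts, 0 genes across these 5 lists rose in either comparison with EGFP. Over all genes, 17.3% rose with SNF5 and 3.98% with OmoMYC. MYC itself had a gene body log2 change of −0.46 with SNF5 (SE 0.22, edgeR adjusted p = 0.134) and 0.95 with OmoMYC (SE 0.22, adjusted p = 0.037), where reads of the gene and of the MYC-derived transgene cannot be told apart.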

How the data were processed

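The authors trimmed PRO-Seq reads with cutadapt, kept those over 15 bp, aligned them to hg19 with Bowtie2, removed rRNA reads and mapping quality under 10, and used NRSA to count them. Raw counts per transcript were deposited, with a gene body signal (reads per bp, used only for gene body length). The deposited MACS2 peak lists, called per sample by the authors at q 0.01 (MYC, hg19) and 0.001 (ATAC, hg38), give a fold ratio over background and −log10 p and q. The OmoMYC MYC lists, which hold a placeholder line, and the IgG samples were not used here.

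The transcript with most gene body reads stood for a symbol. The counts of all 9 samples were fitted by quasi-likelihood in edgeR 4.0.16 under R 4.3.3, with offsets of gene body total times RLE factor for both regions and the replicate number as a block. Numbers pair the samples: deviations from construct means correlated at 0.822 to 0.922 between samples with the same number and at −0.718 to 0.169 otherwise for gene body counts, and at 0.688 or more within numbers for promoter-proximal counts. RPM values, reads per 1000000 gene body reads, are RLE-scaled. DESeq2 1.42.0, TMM, filters, blocks, sample subsets and peak settings were alternatives. On simulated data with 2-fold changes in SNF5 against EGFP, 97.5% were recovered for gene body counts (11169 genes), 60.4% for promoter-proximal counts (11108) and 36.7% for the pausing index (11096), with 3.94% to 5.19% false calls. Smaller changes, such as the called gene body falls of members with SNF5 (log2 −0.25 to −0.73), were not simulated, so their recovery is not known. The simulated construct effect was the same for every replicate number, whereas the median changes of the members differed between pairs. How many false calls such differences give was not simulated. Peaks were compared in Python with pandas, and sequences read with samtools and from RefSeq. Starts in the table lay within 1000 bp of a GENCODE 44 start for 73 of 73 members.

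Members and gene lists were chosen with earlier results of these data known. Genes named are, per measure and comparison, the 3 (2 between SNF5 and OmoMYC) with smallest adjusted p in each direction, or the 2 with smallest p where none passed; the 4 highest and lowest densities; the 3 highest and lowest pausing indices; MYC-bound members; those failing a filter; 2 per gene list; SMARCB1, MYC, MRPS30, MRPS18A and MRPS36. MRPS25, MRPL34 and the genes of ATAC and divergent-start counts were added after their values were seen, as were the ETS and NRF1 cores.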

Additional observations from a re-analysis of the deposited data

Results flagged for a closer look

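Of the 70 members tested, 2 differed between the constructs in the direct test of SNF5 against OmoMYC for gene body counts. Over all genes tested, 11.4% were higher with SNF5 and 7.54% lower. No member was called without the samples numbered 1, nor without those numbered 2. MRPS6 was higher with SNF5 by 0.3745 on the log2 scale, with all 3 SNF5 samples above all 3 OmoMYC samples. Its reads cannot be told from those of SLC5A3. MRPL43 had a log2 difference of −0.3213, with all 3 SNF5 samples below all 3 OmoMYC samples, and was the member with ATAC-Seq peaks in all 3 SNF5 samples and in 0 of the EGFP and OmoMYC samples.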

How the results depend on the processing

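The numbers of members called depended on pairing and on single replicates. Without the replicate block, 0 members were called for gene body counts in any of the 3 comparisons, and 0 for promoter-proximal counts or pausing index with OmoMYC. For gene body counts, 0.0465% of all genes were then lower in SNF5 against EGFP, 0% in OmoMYC against EGFP and 0.0398% in SNF5 against OmoMYC. In the same order, 1.44%, 0.00664% and 0.458% were higher. With each replicate left out in turn, gene body calls ran from 0 to 41 (SNF5 against EGFP), 0 to 42 (OmoMYC against EGFP) and 0 to 9 (SNF5 against OmoMYC), promoter-proximal calls from 0 to 6, 0 to 2 and 0 to 3, and pausing index calls from 0 to 4, 0 to 11 and 0 to 3, in the same order. The share of all genes called lower for gene body counts in those fits ran from 2.12% to 32.3%, 0% to 25.2% and 0.817% to 20.3%. For promoter-proximal counts the share lower ran from 0.0363% to 5.40%, 0% to 0.453% and 0.0182% to 3.90%. The share higher ran from 0.345% to 3.78%, 0.0273% to 7.45% and 0.164% to 0.790%. For the pausing index the share lower ran from 0.0548% to 3.00%, 0% to 0.220% and 0.0456% to 3.65%. The share higher ran from 0.0274% to 2.61%, 0% to 8.52% and 0% to 0.244%. With only the 2 constructs compared in the fit, gene body calls were 9 for SNF5 against EGFP and 1 for SNF5 against OmoMYC. Of all genes, 1666 of 15109 were lower and 2074 higher in the first, and 960 of 15163 lower and 1538 higher in the second. Promoter-proximal and pausing index calls were 2 each for SNF5 against OmoMYC, all lower. There 237 of all 11355 genes were lower and 81 higher for promoter-proximal counts. For the pausing index 315 of all 11282 genes were lower and 31 higher. With OmoMYC, DESeq2 called 11 members lower for gene body counts, where 7.35% of all genes were, and 0 for pausing index, where 0.609% of all genes rose. The fit with no filter called 2 members higher for pausing index with OmoMYC, where 1.5% of all genes were. Promoter-proximal scaling gave 7 promoter-proximal and 3 pausing index calls with SNF5 and 4 promoter-proximal calls with OmoMYC. For promoter-proximal counts with SNF5, 585 of all 11241 genes were then lower and 453 higher. For the pausing index with SNF5, 408 of all 11171 genes were higher and 385 lower. For promoter-proximal counts with OmoMYC, 117 of all 11241 genes were higher and 108 lower. The cause of these differences was not tested. TMM factors changed no count. Members with a MYC region numbered 4 with a reciprocal overlap of 50%, 5 at a q-value of 1e-05, and 9 to 47 with either EGFP sample left out. Counts of SNF5 peaks, ATAC-Seq peaks and E-boxes kept within 1.5 times of their value. Of 210 refits of the 26 called member values, 124 kept the call, 86 lost it and 0 changed sign. Promoter-proximal totals of the samples numbered 1 were 517821 to 671718 reads, against 2024662 or more in the others, and the part of depth and of gene body length in the calls was not tested.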
